A study of Sus scrofa with 6 samples.

Results

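The circRNAs described here are all 16 rows of the table analysed here whose host gene is CCNI (4 circRNAs) or DCAF1 (12 circRNAs), out of 4350 circRNAs in the table, and all 16 are exonic. Rings outside these 4350 rows were not analysed here, so the counts of rings, the shares and the ranks below hold within this table. The host genes were chosen by the back-splice values of the most abundant circRNA of each, where the adults were below the piglets, so the differences between the groups for these 16 circRNAs are a description. No p-value is given for them, and where a fit across all circRNAs called one of them, the call is named with nothing read from it. Testis tissue came from Landrace boars, with 3 boars at 30 days after birth (Piglet-D30, developmental stage Piglet) and 3 at 210 days (Adult-D210, developmental stage Adult), 1 library per boar and no treatment in either group. The semen of the adults had been checked and was normal, and each library came from a single testis. Ribosomal RNA was depleted and linear RNA digested with RNase R before sequencing, and the authors counted the reads that cross each back-splice junction.

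A circRNA forms when a splice donor is joined back to an acceptor that lies upstream of it, which closes 1 or more exons into a ring that exonucleases attack poorly. A single gene can give several rings that differ in the acceptor, the donor or both, and each is counted through its own junction. CCNI encodes cyclin I, an atypical cyclin that is expressed in many resting and differentiated tissues and does not rise and fall with the cell cycle as mitotic cyclins do. DCAF1, also called VPRBP, encodes a substrate receptor of the CUL4-DDB1 ubiquitin ligase, the adaptor that brings proteins to the ligase for ubiquitylation. In the testis, the passage from the prepubertal to the mature organ adds meiotic and haploid germ cells to the somatic cells and spermatogonia.

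The 6 libraries held 37364412 to 49179118 mapped reads and 12701 to 33091 back-splice reads in the table. Piglet-D30 replicate 1 had a read for every exonic circRNA of the table, against 1004 to 1247 of the 2552 in each other library, so rings absent from that library were not analysed here. That library also held the most back-splice reads. Of 71 marker genes of testis cell types, 9 had a circRNA in the table. CYP17A1, a steroid enzyme of Leydig cells, had reads in every library (4 to 13), whereas SOX9, AMH, INSL3 and PRM1 had no circRNA there, so that the cell types could hardly be checked. The Sertoli cell genes GATA4 (7, 0 and 1 piglet reads) and TF (7, 0 and 0) had 0 reads in every adult library, as had KIT of spermatogonia (0, 0 and 4 piglet reads). IQCG, a gene of the sperm flagellum, had 7, 6 and 7 reads in the 3 piglet libraries, replicates 1 to 3 in order, and 67, 27 and 21 in the 3 adult libraries. In bulk tissue, fewer cells of a type and less RNA per cell cannot be told apart, and the part of cell composition in the values below was not tested.

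The 4 CCNI circRNAs lie on the minus strand of chromosome 8 (Sscrofa10.2) and consist of 2 to 5 exons. circRNA10106 (chr8:76896146-76900030, 4 exons) and circRNA10107 (chr8:76896146-76911005, 5 exons) close with the same splice donor and differ in the acceptor. The larger ring reaches across an intron of 10818 nt and takes in 1 more exon, of 157 nt (chr8:76910849-76911005). Their shared donor was used by 99.6% of the 715 CCNI back-splice reads. The nearer acceptor, that of circRNA10106, carried 70.9% of them and the farther one 29.1%. The other rings, circRNA10108 (chr8:76896959-76900030) and circRNA10109 (chr8:76899902-76911005), have 2 exons each and reuse one of these acceptors with a donor of their own.

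The 12 DCAF1 circRNAs lie on the minus strand of chromosome 13 and consist of 2 to 10 exons, with spans of 927 to 31969 nt. The leading circRNA10972 (chr13:36937742-36948936, 4 exons) is flanked by long introns of 11997 nt upstream and 13470 nt downstream, whose sum exceeded that of 76.5% of the exonic circRNAs in the table with introns on both sides. Its acceptor was shared by 5 rings and carried 86.2% of the 493 DCAF1 reads. From the same acceptor, circRNA10973 (3 exons) and circRNA10974 (2 exons) close earlier, and circRNA10970 (9 exons) and circRNA10969 (10 exons) close far downstream, across the 13470 nt intron. The remaining 7 rings lie wholly downstream of that intron, from position 36908095 to 36924271. Among them, circRNA10968 (3 exons) and circRNA10971 (2 exons) had the most reads, with short flanking introns that summed to 3061 and 3570 nt against a median of 12026 nt over the exonic circRNAs.

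**Figure D1:**
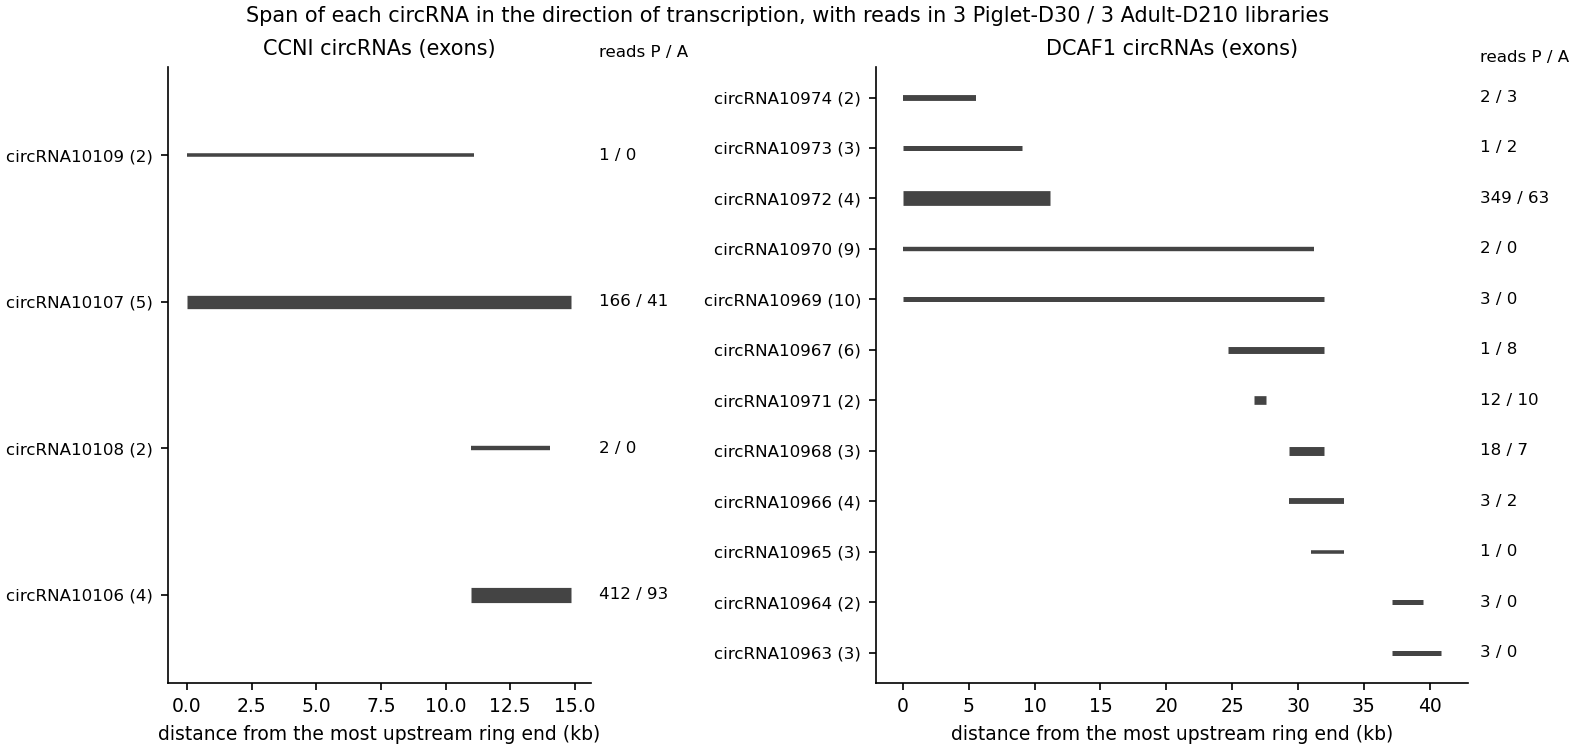
The horizontal axis gives the distance from the most upstream ring end in kb, in the direction of transcription, for the 4 CCNI circRNAs (left) and the 12 DCAF1 circRNAs (right). Each bar is the span of 1 circRNA, thicker with more reads, with its number of exons in brackets and its summed reads in the 3 Piglet-D30 and 3 Adult-D210 libraries at the right. The thick bars are circRNA10106 and circRNA10107 of CCNI, with 412 and 166 reads in Piglet-D30, and circRNA10972 of DCAF1, with 349.

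Reads were concentrated on few rings in each host. circRNA10106 had 505 of the 715 CCNI reads and circRNA10972 had 412 of the 493 DCAF1 reads. Of the 16 circRNAs, 11 had fewer than 10 reads over the 6 libraries and were not tested. Among these, 7 had reads only in Piglet-D30 replicate 1, the library in which every exonic circRNA has a read, with 1 to 3 reads each and 15 in all. A library with 0 reads allows up to 3 at this depth, so the absence of such rings elsewhere was not detectable. Such counting limits and the intervals given below cover counting error only, since reads that carry no molecular identifier may be copies of one molecule.

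The leading CCNI ring, circRNA10106, had 185, 130 and 97 reads in piglet libraries 1 to 3 and 41, 28 and 24 in adult libraries 1 to 3, the order kept throughout. Its level was 22.6 ± 9.36 SRPBM (SD, n = 3) in the piglets, compared with 4.48 ± 1.15 (SD, n = 3) in the adults, where SRPBM is the read count per 1000000000 mapped reads and per base of read length. All 3 adult libraries lay below all 3 piglet libraries, and the mean was 5.04-fold higher in Piglet-D30. The ring ranked 18 of 4350 circRNAs by mean SRPBM among the piglets and 97 among the adults. On the scale of edgeR, normalized to the back-splice reads of the table, the log2 fold change of Adult-D210 over Piglet-D30 was −1.81 (standard error 0.30).

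The 5-exon CCNI ring, circRNA10107, was read 80, 39 and 47 times in the piglets and 7, 21 and 13 times in the adults. The level averaged 9.15 ± 4.48 SRPBM (SD, n = 3) in Piglet-D30 against 2.06 ± 1.28 (SD, n = 3) in Adult-D210. The means differed 4.44-fold, and the groups again did not overlap. The ring ranked 75 of 4350 in Piglet-D30 and 254 in Adult-D210. The log2 fold change was −1.58 (standard error 0.47), within 1 standard error of that of circRNA10106. It met the limits for a call only narrowly, and leaving out any 1 of the 6 libraries lost the call, with log2 fold changes from −2.06 (without Adult-D210 replicate 2) to −1.03 (without Adult-D210 replicate 1).

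Within the pair, the balance of the rings varied among the adult libraries, where boar and library cannot be told apart. The 5-exon ring made up 30.2%, 23.1% and 32.6% of the reads of both rings in the Piglet-D30 libraries. In the Adult-D210 libraries it made up 14.6%, 42.9% and 35.1%. The 95% Wilson intervals of Adult-D210 replicate 1 (7.25 to 27.2%) and replicate 2 (30.0 to 56.7%) did not overlap, so those adult libraries differed from each other by more than their counting intervals. The group means, 28.6% ± 4.97 (SD, n = 3) for Piglet-D30 and 30.9% ± 14.6 (SD, n = 3) for Adult-D210, lay closer together than the libraries within each group. Put as the share of circRNA10106 in all CCNI reads, the difference of Adult-D210 from Piglet-D30 was −1.96 percentage points, and its sign turned when Piglet-D30 replicate 2 (0.95), Adult-D210 replicate 2 (4.04) or Adult-D210 replicate 3 (0.18) was left out.

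The leading DCAF1 ring, circRNA10972, was read 161, 88 and 100 times in the piglets and 35, 16 and 12 times in the adults. Its level was 19.2 ± 8.33 SRPBM (SD, n = 3) in the piglets, compared with 3.01 ± 1.59 (SD, n = 3) in the adults, and the groups did not overlap. The mean was 6.38-fold higher in Piglet-D30, with rank 23 of 4350 there and 185 in Adult-D210. The log2 fold change was −2.17 (standard error 0.35). Without any 1 library it ranged from −2.39 to −1.99.

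Among the minor DCAF1 rings that could be tested, the groups overlapped. circRNA10968 was read 11, 2 and 5 times in the piglets and 6, 1 and 0 times in the adults, and its log2 fold change was −1.02 (standard error 1.04). circRNA10971 was read 8, 0 and 4 times in the piglets and 6, 3 and 1 times in the adults, for a log2 fold change of 0.07 (standard error 1.03). For both rings the standard error was as large as the value or larger. circRNA10967 (6 exons), which shares the donor of circRNA10968 but opens at an acceptor beside the 13470 nt intron, was read 1, 0 and 0 times in the piglets and 0, 4 and 4 times in the adults. It was picked out after its values were seen, and its 9 reads were too few for the test.

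Summed, the 11 minor DCAF1 rings collected 36, 4 and 9 reads from the piglets and 16, 11 and 5 from the adults. In SRPBM they reached 2.81 ± 3.16 (SD, n = 3) in the piglets, compared with 1.55 ± 0.78 (SD, n = 3) in the adults, and only Piglet-D30 replicate 1 lay above all adult libraries. Fitted with edgeR as a sum, beside the summed minor rings of 320 hosts in all, their log2 fold change was −0.26 (standard error 0.64). Without Piglet-D30 replicate 1, which had a read for every exonic ring, it was 0.90 (standard error 0.70). The sign thus turned with this library, and the sum was called in neither fit. The minor CCNI rings, which are circRNA10107 plus 3 reads, gave −1.66 (standard error 0.51) in the fit with all libraries. The median over the hosts was −0.64 there. The CCNI sum was called lower and the DCAF1 sum was not, beside 10.3% of the hosts called lower. Every exonic ring of the table had a read in Piglet-D30 replicate 1, and the CCNI sum is almost all circRNA10107. Nothing is therefore read from these calls. The CCNI call was lost with DESeq2 (−1.43), with a replicate block (−1.67) and without Piglet-D30 replicate 1 (−1.41), Adult-D210 replicate 1 (−1.06) or Adult-D210 replicate 2 (−2.14). The difference between the sums of the hosts was not tested.

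**Figure D2:**
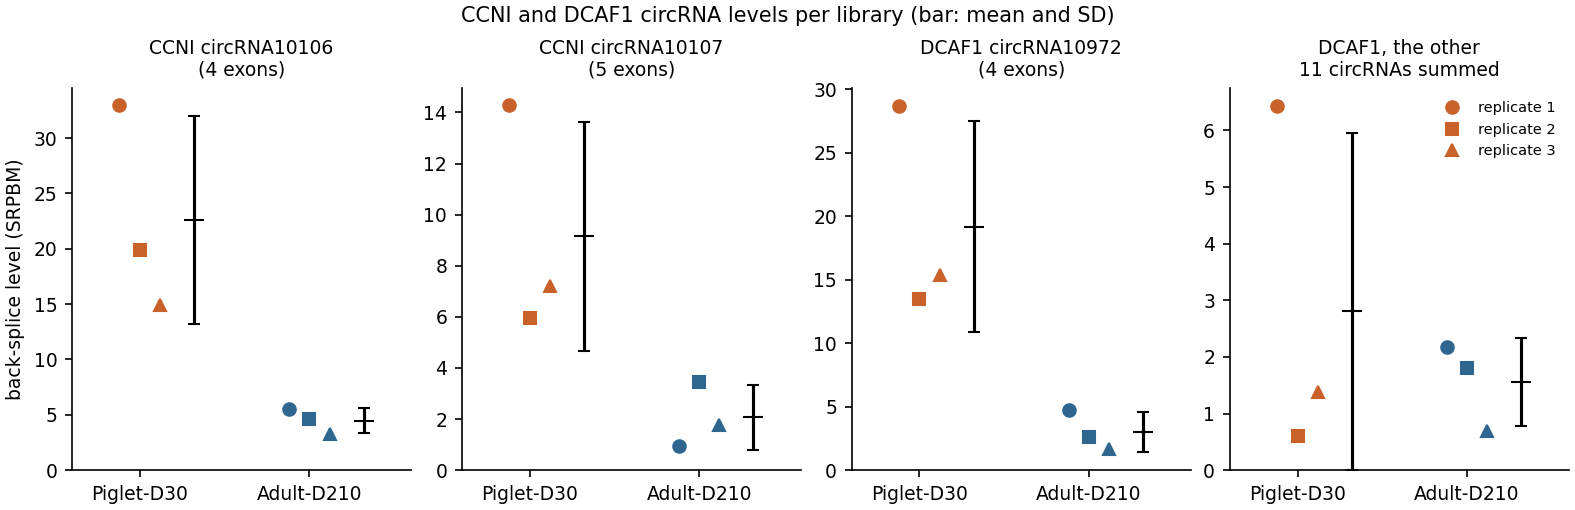
The vertical axis of each panel gives the back-splice level in SRPBM from 0, on its own scale, for the 3 Piglet-D30 and 3 Adult-D210 libraries, with the mean and SD at the right of each group (an SD bar that would go below 0 stops at 0). In the panels of circRNA10106, circRNA10107 and circRNA10972 all adult points lie below all piglet points. In the panel of the summed minor DCAF1 rings the groups overlap, and Piglet-D30 replicate 1 stands highest at 6.42 SRPBM.

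Counting all DCAF1 rings, the leading ring took a smaller share in the adults. circRNA10972 held 81.7%, 95.7% and 91.7% of the DCAF1 reads in the Piglet-D30 libraries. It held 68.6%, 59.3% and 70.6% in the Adult-D210 libraries. The means were 89.7% ± 7.18 (SD, n = 3) and 66.2% ± 6.05 (SD, n = 3), and every adult library lay below every piglet library. The share contains the reads for which the host was chosen, so no test is given. Among 244 hosts whose share could be computed in every library, 8.20% had all adult libraries below all piglet libraries and 12.7% had them above, and the median difference was 1.65 percentage points towards Adult-D210. For DCAF1 the difference was −23.5 points, and leaving out each library gave −27.5 to −20.1. It shrank to −10.7 points when the 3 DCAF1 rings with a read in at least 4 libraries alone were counted. The shares of circRNA10972 were then 89.4%, 97.8% and 91.7% in the piglets and 74.5%, 80.0% and 92.3% in the adults, so that the groups overlapped. The adult shares rest on 51, 27 and 17 reads, and the Wilson interval of Adult-D210 replicate 3 (46.9 to 86.7%) reached past the value of Piglet-D30 replicate 1.

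**Figure D3:**
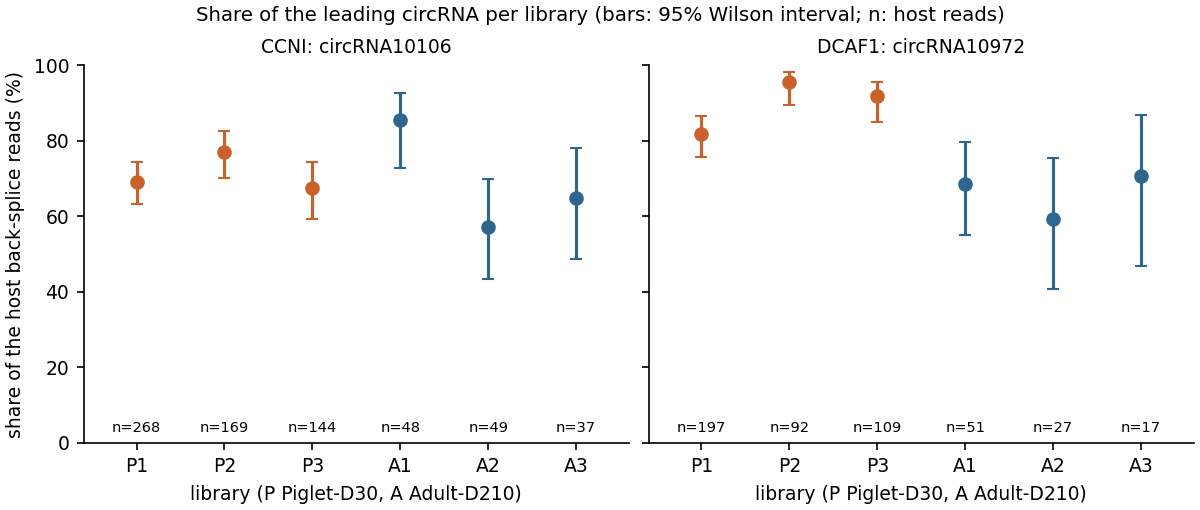
The vertical axis gives the share of the host's back-splice reads, in percent, that belonged to the leading circRNA in each of the 6 libraries, with 95% Wilson intervals and the number of host reads at the foot. For CCNI (left) the 3 adult points lie on either side of the piglet points, from 57.1% to 85.4%. For DCAF1 (right) the 3 adult points, from 59.3% to 70.6%, lie below the 3 piglet points.

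The DCAF1 rings were also summed by their position relative to the 13470 nt intron. The 3 rings of the upstream block, which hold circRNA10972, collected 164, 88 and 100 reads from the piglets and 37, 19 and 12 from the adults. The 7 rings of the downstream block collected 28, 4 and 9 reads from the piglets and 14, 8 and 5 from the adults, or 2.33 ± 2.34 SRPBM (SD, n = 3) and 1.30 ± 0.61 (SD, n = 3). The downstream values of the groups overlapped, while those of the upstream block did not. Of the 420 upstream reads, 412 belong to circRNA10972, whose lower adult values chose the host. The upstream separation was thus built in, and no difference between the blocks is read from it. The 2 rings across the intron had 5 reads, all in Piglet-D30 replicate 1. The blocks were drawn from the coordinates after the values were known.

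Taken by host, CCNI rings made up 4.79 ± 2.08 reads per 1000000 mapped reads (SD, n = 3) in the piglets, compared with 0.98 ± 0.23 (SD, n = 3) in the adults. DCAF1 rings made up 3.30 ± 1.72 and 0.68 ± 0.34 reads per 1000000 (SD, n = 3 each). The adult libraries of both hosts lay below the piglet libraries, with piglet means 4.88-fold and 4.82-fold the adult means. The leading rings that chose the hosts hold 505 of the 715 CCNI reads and 412 of the 493 DCAF1 reads. The direction of the host totals was thus built in, and they are a description. As log2 ratios of adult over piglet the host totals gave −2.29 and −2.27, and they gave −1.58 and −1.64 per 1000000 back-splice reads of the table. The linear mRNA of the hosts was removed before sequencing, so whether it differed as the rings did was not measured.

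Of the 5 members tested with edgeR's quasi-likelihood fit over 1341 circRNAs, 3 were called lower in Adult-D210 (circRNA10106, circRNA10107 and circRNA10972) and 0 higher, against 4.85% of all tested circRNAs called lower, 3.43% called higher and 8.28% called either way (65 lower and 46 higher). With mapped reads as the library size, 68 were called lower and 9 higher. Because that contrast chose the hosts, nothing is read from this count. All 3 also had every adult library below every piglet library in SRPBM, which held for 23.5% of the tested circRNAs. The median log2 fold change of all tested circRNAs was −0.42 and moved to −0.90 when mapped reads were the library size. Without Piglet-D30 replicate 1, which had a read for every exonic circRNA, the median was −0.05 over 1046 tested circRNAs. In that fit 36 were called lower and 38 higher. Relative to the medians of −0.42 and −0.90, circRNA10106 was at −1.39 and −1.43, circRNA10107 at −1.16 and −1.27, and circRNA10972 at −1.75 and −1.76. Relative to the median without Piglet-D30 replicate 1, they were at −1.62, −1.31 and −1.95. Fitted over all 4350 circRNAs without a filter, the median was −1.75, and these rings were at −0.035, 0.17 and −0.38 relative to it. That fit adds the rows with fewer than 10 reads, and every exonic row has a read in Piglet-D30 replicate 1. With at least 20 reads required, the median was −0.21 and the rings were at −1.50, −1.26 and −1.86 relative to it.

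**Figure D4:**
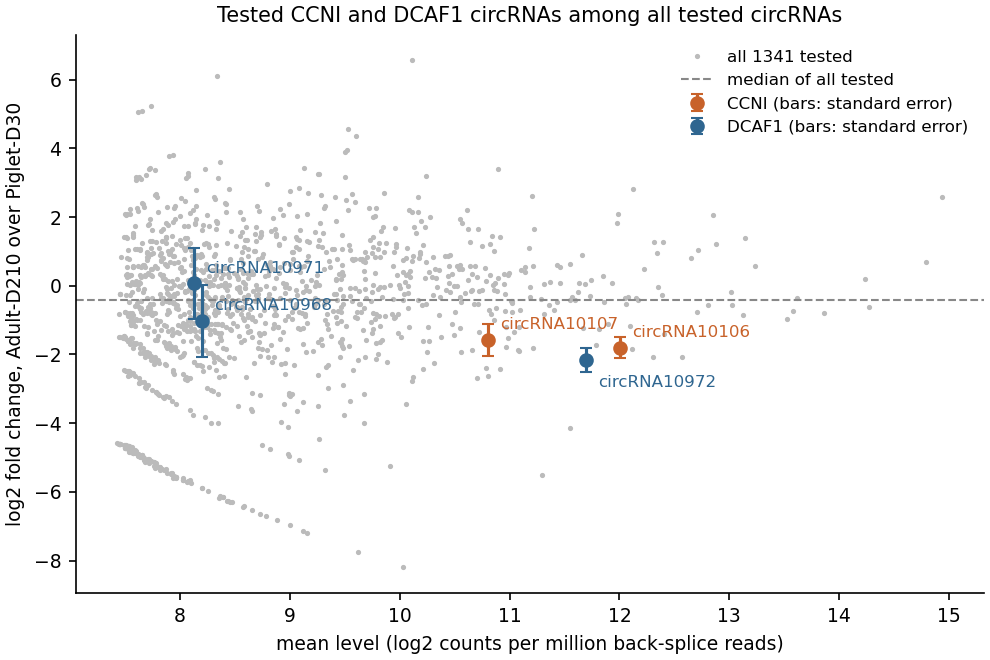
The horizontal axis gives the mean level in log2 counts per 1000000 back-splice reads and the vertical axis the log2 fold change of Adult-D210 over Piglet-D30, with 1 grey point for each of the 1341 tested circRNAs and a dashed line at their median of −0.42. Coloured points with standard errors are the 5 tested circRNAs of CCNI and DCAF1. circRNA10106, circRNA10107 and circRNA10972 lie below the line, and circRNA10968 and circRNA10971 of DCAF1, at low level, have standard errors that cross it.

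The profiles most like those of the leading rings were looked up as a description over 6 libraries, which fall into groups by age and share their depth. For circRNA10106, the highest Pearson r of log2 counts per 1000000 among 1339 circRNAs of other hosts belonged to circRNA11957 (0.993) and circRNA11955 (0.993) of the ephrin receptor gene EPHA3, and to circRNA10447 of the phosphatase gene PTPN13 (0.991). In the piglets circRNA11957 was read 32, 16 and 14 times, circRNA11955 17, 10 and 9 times, and circRNA10447 6, 4 and 2 times. These 3 had 0 reads in each adult library, whereas circRNA10106 kept 24 to 41. For circRNA10972, they were circRNA10676 (0.981), circRNA11508 (0.980) and circRNA10130 (0.979), whose hosts are listed by the identifiers ENSSSCG00000011217, ENSSSCG00000011738 and ENSSSCG00000009000. The leading rings of CCNI and DCAF1 correlated with each other at 0.965. By this value circRNA10972 ranked 28 of 1339 for circRNA10106, and circRNA10106 ranked 24 of 1338 for circRNA10972. Both hosts were chosen for adults below piglets in these rings, so a high r was built in and nothing is read from it.

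Rings of neighbouring genes were examined within 500000 bases on either side. Near CCNI, SEPT11 and CNOT6L had 7 circRNAs, of which circRNA10103 of SEPT11, a septin gene, was tested. It was read 17, 2 and 0 times in the piglets and 0 times in each adult, and was not called by edgeR (adjusted p = 0.154, with the unadjusted p under 0.05) or DESeq2. Near DCAF1, 6 hosts had 20 circRNAs, of which 6 were tested. Of these, 0 were called by edgeR or DESeq2, beside 8.28% of all 1341 tested circRNAs called either way by edgeR. With so few tested, nothing is read from the counts near either host. In edgeR 2 had an unadjusted p under 0.05, a limit for which no share over all tested circRNAs is given. Those were circRNA10952 (7, 0 and 5 piglet reads, then 27, 23 and 0 adult reads) and circRNA10958 (3, 0 and 0 piglet reads, then 13, 6 and 0 adult reads) of DOCK3, a guanine nucleotide exchange factor, with log2 fold changes of 2.32 (standard error 0.91) and 2.79 (standard error 1.29). The circRNA next to DCAF1 with the most reads, circRNA10975 of ENSSSCG00000011425, was read 26, 53 and 34 times in the piglets and 39, 12 and 17 times in the adults.

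Other genes of the same pathways were thinly covered in the table analysed here, which holds a small part of the circRNAs the paper reports. Of 59 cyclins, cyclin-dependent kinases and partners, CCNK and CCNL1, cyclins that pair with kinases of transcription and splicing, had 4 circRNAs with 1 to 7 reads each, and 0 were tested. Of 64 genes of the CUL4 ligase, the other cullins, their neddylation and the COP9 signalosome, 7 had 11 circRNAs, of which 3 were tested. All 3 belonged to DCUN1D1, which promotes the attachment of NEDD8 to cullins. circRNA11599 was read 85, 47 and 45 times in the piglets and 28, 10 and 22 times in the adults. Its log2 fold change was −1.21 (standard error 0.40) and did not pass the limit (edgeR adjusted p = 0.0726). circRNA11600 and circRNA11602 of the same host had log2 fold changes of −0.29 (standard error 0.58) and −0.53 (standard error 1.38). None of the 3 was called by edgeR or DESeq2, beside 8.28% of all tested circRNAs called either way by edgeR. With 3 tested, nothing is read from this count. In edgeR 1 of them, circRNA11599, had an unadjusted p under 0.05. The intronic circRNA of CUL4A itself had 2 reads, both in Adult-D210 replicate 2.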

How the data were processed

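Testis RNA of 3 Piglet-D30 and 3 Adult-D210 boars was sequenced as read pairs after removal of ribosomal and linear RNA. Reads were trimmed (Cutadapt) and aligned to Sscrofa10.2 (TopHat2), and back-splice junctions were found by TopHat-Fusion with CIRCExplorer2. For each circRNA and library the authors deposited the raw count, not normalized, and SRPBM, a signal equal to that count per 1000000000 mapped reads divided by the read length of 150. Dividing counts by SRPBM gave back the mapped reads of each library. Groups and replicates came from the sample titles. Whether a number marks paired boars is not stated, and same-numbered libraries deviated together at r = 0.05, −0.01 and −0.03, so no pairing was used.

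CircRNAs whose counts summed to 10 or more entered edgeR 4.0.16 (R 4.3.3), with TMM normalization of the back-splice totals, a robust quasi-likelihood fit and Benjamini-Hochberg adjustment over all tested rows. Calls had an adjusted p under 0.05 together with a log2 fold change at or past 1 in either direction. Minor rings were summed per host and fitted on the same scale. The planned permutation test of the leading share is not printed, since the share contains the reads that chose the hosts. Code was tested on simulated data. Replicates differed by more than counting noise (chi-square per degree of freedom 3.87 to 4.97). Members and lists were chosen with earlier results of these data known. Named were all 16 members, the 3 most similar profiles per leading ring, circRNAs within 500000 bases and tested rows of the pathway lists, with any further one picked after seeing its values. Shares carry 95% Wilson intervals (SciPy 1.17.1 in Python 3.11.15). Alternatives included DESeq2 1.42.0. No sequences are printed because no genome of this build was used here.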

Additional observations from a re-analysis of the deposited data

How the results depend on the processing

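Under all 13 alternatives the log2 fold changes of circRNA10106 and circRNA10972 kept their sign, and both rings stayed called. Of these alternatives 1, edgeR's legacy quasi-likelihood setting, was chosen after seeing the data. The hosts were chosen by the values of these rings, so nothing is read from the kept calls. The log2 fold change of circRNA10968 kept its sign, from −2.69 to −0.41 without 1 library, and the ring was called in none of them. That of circRNA10106 ranged from −1.91 to −1.67 and that of circRNA10972 from −2.39 to −1.99 when 1 library was left out. circRNA10107 lost its call under 10 of 13, at −1.42 without TMM, −1.40 with DESeq2, −1.46 with at least 20 reads, −1.64 with a replicate block, and −2.06 to −1.03 when 1 library was left out. circRNA10971 turned to −0.42 on mapped reads and ranged from −0.40 to 0.87 without 1 library. The summed minor rings of CCNI lost their call with DESeq2 (−1.43), with the replicate block (−1.67) and without some libraries (range −2.14 to −1.06), and those of DCAF1 ranged from −0.61 to 0.90. Hosts called by their minor rings numbered 44, 24 on mapped reads, and 17 to 47 without 1 library. Of all tested circRNAs 111 were called, 77 on mapped reads, 33 with the replicate block, and 39 to 81 without 1 library. The share of circRNA10106 differed by −10.1 to 4.04 percentage points without 1 library, and that of circRNA10972 kept its sign under all 9 alternatives but fell in size from −23.5 to −10.7 points with the rings read in at least 4 libraries. The log2 ratio of the CCNI host total, −2.29 per 1000000 mapped reads, was −1.58 per 1000000 back-splice reads and −1.72 on TMM-adjusted totals, and that of DCAF1, −2.27, was −1.64 and −1.77. The cause of these moves was not tested.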
